A study of Mus musculus with 4 samples.

Results

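Whole mouse embryos lacking the RNA editing enzyme ADAR1 were compared, gene by gene, with whole embryos lacking both ADAR1 and the signalling adaptor MAVS, all at the embryonic age E11.5. The genes were taken from chromosomes 10 and 11 and from the first part of chromosome 12, where both embryo libraries hold values. Reference isoforms were summed for each gene symbol, which gave 4201 symbols of the 33783 in the whole series. Of these, 1629 had at least 1 FPKM (fragments per kilobase of transcript, scaled to the mapped total) in either library and are called the counted genes. Total RNA was extracted with Trizol from embryos whose strain is written C57B16/N in the labels. The Adar1-/- library carries the loss of Adar1 alone, and the Adar1-/- Mavs-/- library carries the loss of Adar1, which both share, together with the loss of Mavs. There is 1 library in each group, so 2 of the 4 libraries of the series are used, and no difference here could be set against a spread between embryos. The making of the alleles and any pooling of embryos were not given in the sources used here. Adar and Mavs themselves lie on other chromosomes and were not analysed here, so these genes could not check the labels.

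ADAR1 edits double-stranded RNA by turning adenosine into inosine. The sensors RIG-I and MDA5 bind double-stranded RNA and signal through MAVS on the mitochondrial membrane, which leads to production of type I interferon. Interferon acts through its receptors, JAK kinases, STAT2 and IRF9 on a large set of target genes, whose promoters often carry an interferon-stimulated response element (ISRE). Another element of interferon-responsive promoters is the gamma-activated site (GAS). Loss of ADAR1 is lethal to mouse embryos in mid-gestation and comes with a raised interferon response. The comparison asks, gene by gene, how such an embryo's RNA differs when MAVS is lost as well.

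Values of the Adar1-/- Mavs-/- library were multiplied by 1.29, the factor that sets the median ratio to 1 over the 704 genes that reached 5 FPKM in each library, and are given after this scaling. The log2 ratio is that of FPKM plus 1, the Adar1-/- Mavs-/- library over the Adar1-/- library, which understates differences of weakly expressed genes. Higher and lower refer to the Adar1-/- Mavs-/- library. A gene is called 2-fold higher or lower when its log2 ratio is at least 1 in size. Read totals were not given in the sources used here. Instead, coverage divided by FPKM, a measure that grows with depth, came to 3.48 for the Adar1-/- library and 5.62 for the Adar1-/- Mavs-/- library. The bounds are the authors' own, combined over isoforms, and cover the estimate within a library only. The median distance from value to bound was 16.9% and 13.4% of the value for genes from 1 to 5 FPKM, and 7.05% and 6.06% from 5 FPKM up. Genes that mark embryonic tissues were present in both libraries. The embryonic globin Hba-x had 806.2 and 1103 FPKM, the atrial myosin Myl7 had 53.6 and 59.3, and the neural fatty acid binding protein Fabp7 had 20.2 and 11.01.

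Of the 1629 counted genes, 224 (13.8%) were at least 2-fold lower and 181 (11.1%) at least 2-fold higher, and 1224 lay within 2-fold. The median log2 ratio was -0.10. Many of these calls rest on a gene listed at 0 in a library: 115 of the lower genes in the Adar1-/- Mavs-/- library and 100 of the higher genes in the Adar1-/- library. An exact 0 can be a failed estimate, since genes that every cell uses are among them. Rps12, a ribosomal protein gene, stands at 0 in the Adar1-/- library, and Tubg1, the gamma tubulin of the centrosome, at 0 in the other. Among the 1414 genes above 0 in both libraries, 109 were at least 2-fold lower and 81 at least 2-fold higher. The share of higher genes among all 2-fold genes was 44.7%. It was 31.1% with FPKM as deposited and 14.8% with values rescaled to a common total (TPM). These scalings shift every ratio by -0.37 and -0.97 on the log2 scale before the pseudocount, and an upper quartile factor shifts it by 0.20.

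Most of the interferon-stimulated genes with values here were lower when Mavs was lost as well. Of 68 listed genes, 30 have reference isoforms in these values, and 18 of the 30 (60.0%) were at least 2-fold lower and 0 at least 2-fold higher. Over all 4201 symbols, without the minimum of 1 FPKM, 5.33% were at least 2-fold lower and 4.31% at least 2-fold higher. The other 12 listed genes had under 1 FPKM in both libraries, where a 2-fold call cannot be made on this scale. The 18 are the counted ones, and 16 of these passed the minimum only through the Adar1-/- library, so their number adds nothing to their direction. Over the 30 genes the median log2 ratio was -1.75, with 23 below 0 and 4 above, beside 0 over all 4201 symbols. It was -2.83 over the 18 counted genes and -3.02 over the 13 of these above 0 in both libraries. All counted genes had -0.10. The minimum favours the Adar1-/- library among the 18, also in the FPKM medians that follow, so no direction is read from these medians. The 18 genes had a median of 8.80 FPKM in the Adar1-/- library, where the median counted gene had 6.98. In the Adar1-/- Mavs-/- library they had a median of 0.182, where the median counted gene had 6.08. No interferon-stimulated gene exceeded 1.21 FPKM there. Exactly 7 counted genes above 0 in both libraries had log2 ratios of -3 or below, and all 7 are on these lists. The lists were chosen with earlier results of these data known, so neither this overlap nor the 60.0% is an independent result. In whole embryos, fewer cells of a type and less RNA per cell cannot be told apart.

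**Figure D1:**
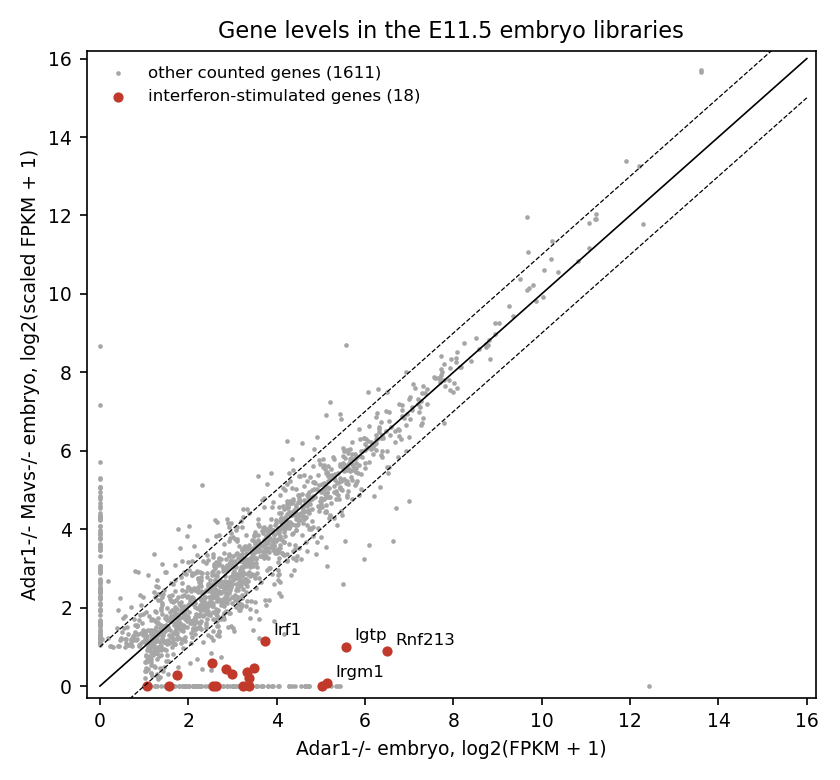
Each point is a counted gene, with log2(FPKM + 1) in the Adar1-/- embryo library on the horizontal axis and log2(scaled FPKM + 1) in the Adar1-/- Mavs-/- library on the vertical axis. Red points are the 18 interferon-stimulated genes, the solid line marks equal values and the dashed lines a 2-fold difference on this scale. The red points lie along the lower edge, below 1.21 FPKM in the Adar1-/- Mavs-/- library, while most of the 1611 other genes lie between the dashed lines, and points on an axis are genes listed at 0.

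The immunity-related GTPases (IRG proteins), which load onto the vacuoles of intracellular parasites and bacteria, gave the lowest list median. Of 11 in the values 6 were counted, and the 6 had a median log2 ratio of -3.30. All but Igtp passed the minimum only through the Adar1-/- library, which pushes this median down. Irgm1, a regulator of the other members (chromosome 11, 48675470 to 48685185 on mm9), had 34.1 FPKM in the Adar1-/- library, with bounds of 31.8 and 36.3, against 0.0542 when Mavs was lost too, with bounds of 0.0162 and 0.0921. In the pairs of values that follow, the Adar1-/- library comes first. Igtp, also called IRGM3 (chromosome 11, 58013058 to 58021093), had 46.6 FPKM (bounds 44.9 to 48.2) and 1.01 (bounds 0.788 to 1.22), a 46.3-fold difference. Its neighbour Irgm2 had 9.35 FPKM (bounds 6.70 to 12.004) and 0.147 (bounds 0.0848 to 0.209). In each of these regulatory members the bounds of the libraries lay far apart, but those of Irgm1 belong to a different reference isoform in each library. With assembled isoforms included Irgm1 had 39.7 and 0.430 FPKM.

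The effector GTPases of the family showed the same direction. Tgtp1 had 9.36 and 0.00793 FPKM and Tgtp2 had 8.50 and 0.00797, and in both the lower bound in the Adar1-/- Mavs-/- library was 0. These are near-identical copies, so the split of reads between them is uncertain. Ifi47, which encodes IRG47, had 6.97 FPKM (bounds 6.27 to 7.67) and 0.240 (bounds 0.105 to 0.431). Of the 5 members that were not counted, Gm12250, an IRG gene, was the highest, with 0.901 and 0.292 FPKM.

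Of the 9 Schlafen genes in the values, which act on cell growth and on the replication of viruses, 3 were counted, and these were lower. The 3 passed the minimum only through the Adar1-/- library, so nothing is read from their shared direction. Over all counted genes 13.8% were at least 2-fold lower. Slfn2, needed for T cell quiescence (chromosome 11, 82878614 to 82884180), had 4.82 FPKM (bounds 4.23 to 5.402) and 0.513 (bounds 0.342 to 0.684), a log2 ratio of -1.94. Slfn9 had 6.26 FPKM (bounds 5.64 to 6.89) and 0.347 (bounds 0 to 0.836). Slfn5 had 4.89 FPKM (bounds 4.18 to 5.604) with Adar1 lost alone and was listed at 0 with Mavs lost too. The other members, Slfn1, Slfn3, Slfn4, Slfn8, Slfn10-ps and Slfn14, had at most 0.395 FPKM, the value of Slfn14 in the Adar1-/- Mavs-/- library. Of these, Slfn8 and Slfn14 were higher in that library, Slfn1, Slfn4 and Slfn10-ps were lower, and Slfn3 was at 0 in both.

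Rnf213, a giant ubiquitin ligase with antiviral and antibacterial activity (chromosome 11, 119254414 to 119348732), was the most abundant interferon-stimulated gene, at position 110 of the 1629 counted genes in the Adar1-/- library. It had 90.0 FPKM (bounds 89.3 to 90.8) there, against 0.857 (bounds 0.782 to 0.932) with Mavs lost too, a 105-fold difference and a log2 ratio of -5.62. Ifi35, an interferon-induced leucine zipper protein (chromosome 11, 101309721 to 101320012), had 31.4 FPKM (bounds 25.2 to 37.6) and was listed at 0 in the other library, also when every isoform of any name over its span was added. Xaf1, an inhibitor of the anti-apoptotic protein XIAP, had 10.2 FPKM (bounds 8.54 to 11.9) and 0.388 (bounds 0.116 to 0.660). Lgals3bp, a secreted galectin-3 binding protein, had 9.11 FPKM (bounds 7.84 to 10.4) and 0.286 (bounds 0.0528 to 0.521). Ncoa7, a nuclear receptor coactivator with a short interferon-induced form, had 1.10 FPKM and was listed at 0 in the other library. Its direction turned over the whole gene span, where its log2 ratio was 0.79.

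The other 4 of the 18 genes, Irf1, Stat2, Dhx58 and Trim25, sense RNA or carry the interferon signal. Irf1, a transcription factor that activates many of these genes (chromosome 11, 53583516 to 53591876), had 12.3 FPKM (bounds 10.7 to 13.9) and 1.21 (bounds 0.798 to 1.63), a log2 ratio of -2.59. Stat2, the STAT protein of the type I interferon signal (chromosome 10, 127707632 to 127729905), had 5.17 FPKM (bounds 4.76 to 5.59) and was listed at 0, but assembled isoforms of the gene were above 0, and with them the values were 7.06 and 3.21 FPKM, a log2 ratio of -0.94. Dhx58, the gene of LGP2, a relative of RIG-I, had 1.96 FPKM (bounds 1.61 to 2.30) and was listed at 0, and with assembled isoforms it had 5.97 and 0.728 FPKM. Trim25, a ubiquitin ligase of RIG-I, had 2.36 FPKM (bounds 1.89 to 2.83) and 0.217 (bounds 0.146 to 0.288).

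All 13 interferon-stimulated genes above 0 in both libraries had bounds that did not overlap. For Irgm1, Ifi47 and Lgals3bp, however, the libraries had no reference isoform above 0 in common. For Irf1, Xaf1, Tgtp1 and Tgtp2 only a part was common to both, so the bounds of these genes do not compare the same transcripts. The value in the Adar1-/- library came from isoforms of status LOWDATA alone for 6 of the 18 genes: Irgm1, Ifi47, Slfn5, Slfn9, Rnf213 and Xaf1. With isoforms of status OK alone, 12 genes were counted and the 12 were at least 2-fold lower. Of the 18 genes, 17 were at least 2-fold lower with assembled isoforms included, the exception being Stat2. The number that were at least 2-fold lower in that way and also over the gene span was 16, the exceptions being Stat2 and Ncoa7. Over all counted genes the share was 3.68%, from which nothing is read here, since 16 of the 18 passed the minimum only through the Adar1-/- library. A pseudocount of 5 left 13 of the 18 at least 2-fold lower.

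**Figure D2:**
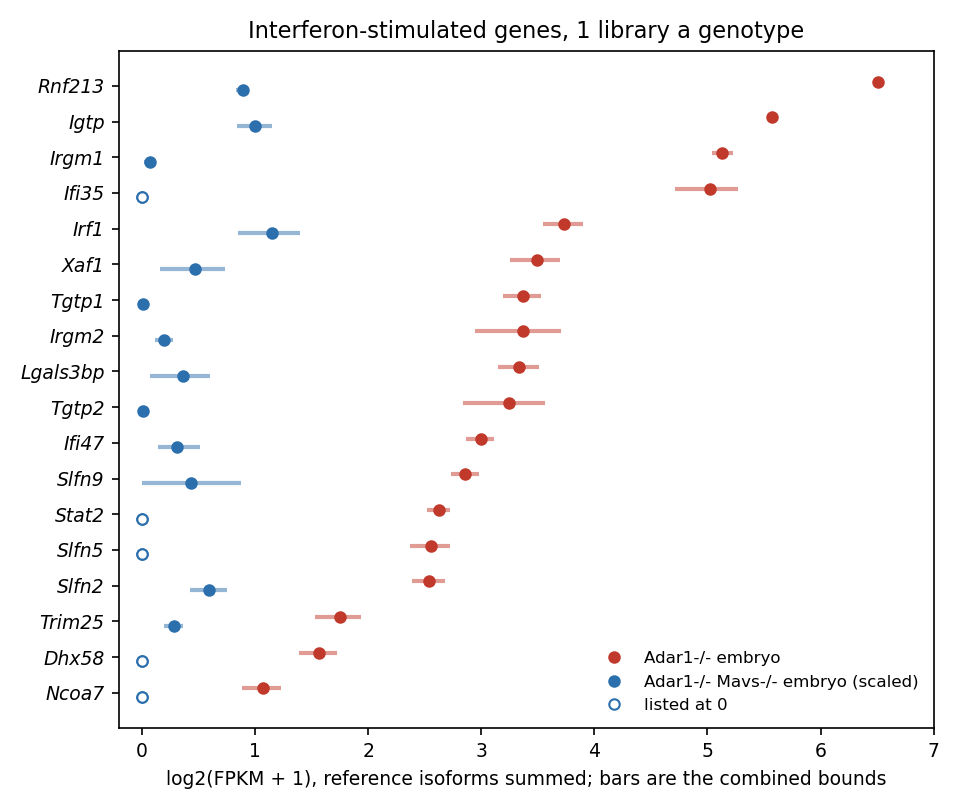
Level of each counted interferon-stimulated gene, as log2(FPKM + 1), in the Adar1-/- library (red) and in the Adar1-/- Mavs-/- library after scaling (blue), with the combined bounds as bars and genes listed at 0 as open circles. In each gene the red point, from 1.10 FPKM (Ncoa7) to 90.0 (Rnf213), lies to the right of the blue one, which does not pass 1.21 (Irf1).

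The promoters of the 18 counted interferon-stimulated genes were read after the genes were seen to share a direction. Of the 18, 16 had passed the minimum only through the Adar1-/- library. RefSeq promoter windows, from 250 bases before to 50 bases after a gene's start, were matched by symbol for 17 of the 18 genes, all but Dhx58. The core of an ISRE, written GAAANNGAAA, was searched on both strands, as was the GAS core TTCNNNGAA, which reads the same on both. ISRE letters were found in the windows of 9 of the 17 genes (52.9%), compared with 3.99% of the 27025 symbols with a window and 3.24% of the 1112 counted genes of no interferon list. The genes come from lists of known interferon-stimulated genes, whose promoters often carry an ISRE. This share therefore describes the lists and is no result of the 2 libraries. Listed genes that were not counted were not read on their own. Shown here are the stretches before the start in the 8 genes whose ISRE letters lie there, 5' to 3' on the gene's strand, with ISRE and GAS letters in capitals.
Irgm1: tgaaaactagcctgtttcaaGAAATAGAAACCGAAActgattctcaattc
Irgm2: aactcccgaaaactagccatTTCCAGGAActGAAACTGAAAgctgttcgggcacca
Igtp: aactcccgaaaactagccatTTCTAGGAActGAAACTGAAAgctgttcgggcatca
Tgtp1: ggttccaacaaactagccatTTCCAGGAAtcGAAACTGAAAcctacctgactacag
Tgtp2: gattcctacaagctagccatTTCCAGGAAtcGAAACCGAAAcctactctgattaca
Slfn5: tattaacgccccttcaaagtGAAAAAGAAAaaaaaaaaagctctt
Slfn9: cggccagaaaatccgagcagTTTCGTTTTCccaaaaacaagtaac
Stat2: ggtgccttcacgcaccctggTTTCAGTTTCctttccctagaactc

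The positions are those of RefSeq's build GRCm38.p6, which differs from the mm9 build of the expression values. Irgm1 lies at chr11:48871421-48871470 (minus strand), Irgm2 at chr11:58214882-58214937 (plus), Igtp at chr11:58199491-58199546 (plus) and Tgtp1 at chr11:48992299-48992354 (minus). Tgtp2 lies at chr11:49064258-49064313 (minus), Slfn5 at chr11:82951927-82951971 (plus), Slfn9 at chr11:82991851-82991895 (minus) and Stat2 at chr10:128270256-128270300 (plus). Slfn9 and Stat2 carry the ISRE letters on the opposite strand. Irgm1 has 2 overlapping matches, the first beginning 30 bases before the start, and the first match began from 34 bases (Igtp) to 222 bases (Stat2) before the start in the others.

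Of the 6 counted IRG genes, 4 share an arrangement of the motifs. In Irgm2, Igtp, Tgtp1 and Tgtp2 the GAS letters begin 11 bases before the ISRE letters, so the motifs lie side by side. Irgm1 has ISRE letters but no GAS letters in its window, and Ifi47 has neither. GAS letters were found in 6 of the 17 genes (35.3%), those 4 with Ifi35 and Irf1, beside 9.55% of all symbols with a window. The GAS share, like that of the ISRE, describes genes listed as interferon-stimulated and is no result of the libraries. A match is a run of letters and no measurement of binding, and paralogous promoters such as those of Tgtp1 and Tgtp2 are not independent of each other.

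Of the 18 genes 16 lie on chromosome 11 and 2 on chromosome 10, several of them in clusters, so the nearest counted gene of no interferon list was read on each side. The 18 genes have 27 such neighbours, some shared. Of the 27, 4 were at least 2-fold lower and 3 at least 2-fold higher, with a median log2 ratio of -0.30, beside 13.8% lower and 11.1% higher over all counted genes. Ifi35 lies between Rpl27, a ribosomal protein gene at 188.4 and 233.6 FPKM, and Vat1, at 15.2 and 13.9, with only 0.047 kb between Ifi35 and Vat1. Rnf213 lies between Sgsh, a lysosomal sulfatase gene at 1.33 and 1.13 FPKM, and Endov, an endonuclease gene at 10.4 and 11.3. Irgm2 and Igtp share the left neighbour Mrpl22, a mitochondrial ribosomal protein gene at 10.3 and 13.3 FPKM.

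Of the 4 lower neighbours, Gm12184 and Psme2b, both beside the IRG cluster, were also at least 2-fold lower with assembled isoforms. Psme2b, a copy of the gene for an interferon-inducible proteasome activator subunit, had 91.1 and 42.6 FPKM, a log2 ratio of -1.08, and -0.95 over its gene span. It shares sequence with its parent gene, which was not analysed here, so the source of its reads is uncertain. Gm12184 had 7.67 FPKM and was listed at 0 with Mavs lost too, but was at -0.15 over its gene span. The other lower neighbours were Zfp692, at 5.64 and 0.666 FPKM, and Pan2, at 5.99 and 2.25, and both lay within 2-fold with assembled isoforms included, at -0.40 and -0.72. Slc22a5, the carnitine transporter gene beside Irf1, was at -0.06 with reference isoforms and at -1.48 with assembled isoforms.

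**Figure D3:**
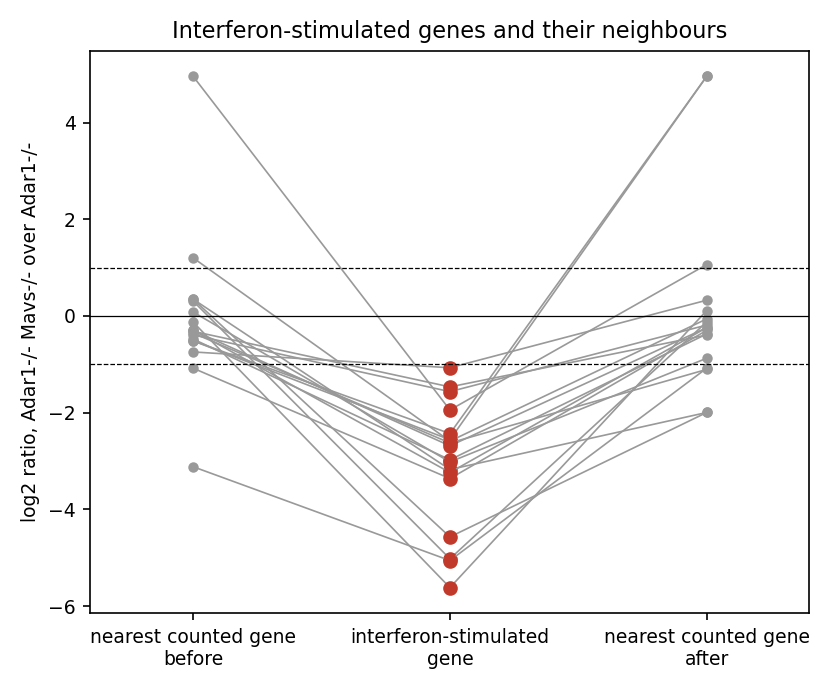
Log2 ratio (Adar1-/- Mavs-/- over Adar1-/-) of each counted interferon-stimulated gene (red, centre) and of the nearest counted gene of no interferon list before and after it on the chromosome (grey), with lines joining each gene to its own neighbours. The red points run from -5.62 to -1.07, and the neighbours have a median of -0.30, with dashed lines at a 2-fold difference.

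Outside the interferon-stimulated genes, the pathway that leads to them was represented by few genes. Of the 6 counted genes of RNA sensing and MAVS signalling, 4 were at least 2-fold lower, but 2 of these are Dhx58 and Trim25, and 1 was at least 2-fold higher. Over all counted genes 13.8% were lower and 11.1% higher. Ube2n, the ubiquitin-conjugating enzyme that builds K63-linked chains in this pathway, had 1.78 FPKM (bounds 1.498 to 2.07) and was listed at 0, and over its gene span the values were 21.1 and 8.59, a log2 ratio of -1.21. Tbk1, the kinase that phosphorylates IRF3, had 5.24 and 1.48 FPKM, a log2 ratio of -1.33 that was -0.10 with assembled isoforms included. Rnf135, a ubiquitin ligase of RIG-I, had 1.58 and 1.02 FPKM. G3bp1, a stress granule protein, was listed at 0 with Adar1 lost alone and had 4.53 FPKM with Mavs lost too, but was at -1.23 with assembled isoforms.

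Other genes of the JAK-STAT pathway lay mostly within 2-fold. Of 9 counted, Stat2 was at least 2-fold lower and 2 were at least 2-fold higher with reference isoforms only. These were Socs7, at 3.74 FPKM when Mavs was lost and listed at 0 otherwise, and Stat5b, at 1.84 and 6.50 FPKM. Both had negative ratios over their gene span, -0.54 and -0.60. Socs3, the feedback inhibitor of cytokine signalling, had 4.85 and 3.89 FPKM, Stat3 had 4.87 and 2.68, and Stat6 had 3.09 and 3.33.

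Both counted monocyte chemoattractants were lower, from low levels. Each passed the minimum only through the Adar1-/- library, so nothing is read from their direction. Over all counted genes 13.8% were at least 2-fold lower. Ccl2 had 1.16 FPKM in the Adar1-/- library and 0.0343 in the other, and Ccl12 had 1.89 (bounds 0.852 to 2.94) and 0.228 (bounds 0 to 0.492). Their bounds did not overlap, but Ccl2 was within 2-fold over its gene span, at -0.85. Ccl9, a macrophage chemokine, had 0.79995 and 1.92 FPKM, with bounds that overlapped. Of 26 chemokine and cytokine genes in the values these were the 3 counted.

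Of 8 counted genes of NF-kB signalling and its feedback, 7 lay within 2-fold. Tnip1, an inhibitor of NF-kB, had 1.65 and 3.37 FPKM, a log2 ratio of 0.72, and Commd1, another inhibitor, had 133.0 and 129.5. Traf3ip2, the adaptor of the interleukin-17 receptor, was listed at 0 with Adar1 lost alone and had 1.76 FPKM (bounds 1.52 to 1.99) with Mavs lost too.

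With reference isoforms, markers of macrophages, granulocytes and lymphoid and mast cells were near the floor in both libraries. The 14 macrophage genes in the values summed to 3.04 FPKM in the Adar1-/- library and 5.98 in the other, with Spic, Cd68 and 3 others listed at 0 in the first and Spic, Cd68 and 3 others in the second. Lyz2, which encodes lysozyme, was the only one counted, at 0.960 FPKM (bounds 0.660 to 1.26) and 3.87 (bounds 3.33 to 4.40). The 10 granulocyte genes summed to 3.20 and 2.37 FPKM, with Elane and Prtn3 listed at 0 in both. The 11 lymphoid and mast cell genes summed to 0.934 and 1.93 FPKM, with Cd7 and Havcr2 listed at 0 in both. Without Lyz2 the other 13 macrophage genes summed to 2.08 and 2.11 FPKM. With assembled isoforms some markers passed 1 FPKM, such as Cd68 (0 and 1.22), Naglu (4.15 and 2.13) and Sbno2 (2.53 and 3.38). Of 27 listed macrophage genes 14 are in the values, and Csf1r and Adgre1 are not. The 9 megakaryocyte genes summed to 39.5 and 42.8 FPKM, most of it from Pecam1 at 15.54 and 22.6, also an endothelial gene, and Rap1b at 16.6 and 17.4. Of the 5 counted, these 2 had ratios above 0 and 3 had ratios below. The 3 were Itga2b at 3.32 and 0, Itgb3 at 2.17 and 1.51, and P2rx1 at 1.03 and 0.528. With assembled isoforms Itga2b had 4.38 and 4.49 and Itgb3 2.17 and 3.13. Gp1ba was listed at 0 in both. The part of blood cells in the interferon-stimulated values was not tested.

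Which isoforms are summed decided many of the other calls. Of the 224 lower genes 107 were also at least 2-fold lower with assembled isoforms included, and 45 had the opposite sign. Of the 181 higher genes 99 were also at least 2-fold higher, and 40 had the opposite sign. When a gene also had to be 2-fold the same way over its whole span, 60 lower (3.68% of counted genes) and 67 higher (4.11%) were left. Of these, 30 lower and 15 higher genes code for protein, and 16 of the 30 are interferon-stimulated genes. Of the 15 protein-coding genes that were lower in all these ways and above 0 in both libraries, 13 are interferon-stimulated, and the others were Ccl12 and Slc39a3, a zinc transporter, at 9.49 FPKM (bounds 8.95 to 10.02) and 2.93 (bounds 2.67 to 3.20). The listed interferon-stimulated genes made up 18 of the 1363 counted protein-coding genes. Nothing is read from these overlaps, since the lists were chosen with earlier results of these data known. In addition, 16 of the 18 passed the minimum only through the Adar1-/- library.

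**Figure D4:**
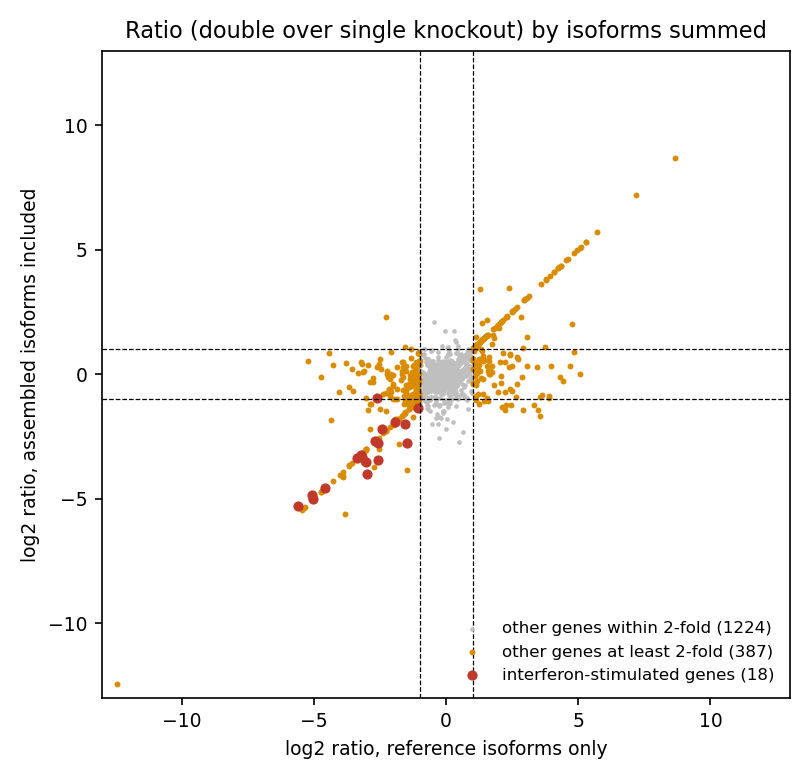
Log2 ratio of each counted gene with reference isoforms only (horizontal) and with assembled isoforms included (vertical), with dashed lines at a 2-fold difference. The 18 interferon-stimulated genes (red) lie along the diagonal in the lower left, with Stat2 at -0.94 on the vertical axis, while many of the other 387 genes that are at least 2-fold with reference isoforms (orange) fall between the horizontal dashed lines or across 0.

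The other 12 protein-coding genes that were lower in all these ways were listed at 0 in the Adar1-/- Mavs-/- library. With reference isoforms, Grn, which encodes progranulin, had 13.9 FPKM in the Adar1-/- library, Mgat4b, a glycosyltransferase of the Golgi, had 13.0, and Kctd2, a BTB-domain protein, had 11.9. Rad51c, a DNA repair protein, had 2.88, and Chchd10, a mitochondrial protein, had 4.83. Over their gene spans Grn had 13.8 and 0.655 FPKM, Mgat4b 12.3 and 0.50025, and Kctd2 7.94 and 0.701. The rest were Oxld1, Tmem88, Ccdc40, Ptprk, Osbpl7, Arhgap44 and Ube2n, from 1.78 FPKM (Ube2n) to 7.88 (Oxld1) in the Adar1-/- library. These were read after their values were seen. On chromosome 11, 2 of them lie next to a gene with the opposite direction. Grn ends at 102298123 and Fam171a2, at 33.6 and 119.6 FPKM, starts at 102298295. Mgat4b starts at 50024392 and Sqstm1, at 89.9 and 178.9 FPKM, ends at 50024329. Over their gene spans Fam171a2 and Sqstm1 had log2 ratios of 0.14 and 0.32. Whether reads of Grn and Mgat4b were given to isoforms of these neighbours was not tested.

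Of the 15 protein-coding genes that were higher in all these ways, 5 were above 0 in both libraries. Snrpd3, a core protein of the spliceosome, had 17.9 FPKM (bounds 15.7 to 20.1) and 74.6 (bounds 70.6 to 78.6). Uqcrq, a subunit of respiratory complex III, had 42.2 FPKM (bounds 36.6 to 47.8) and 121.6 (bounds 113.4 to 129.9). Mrpl12, a mitochondrial ribosomal protein, had 19.7 and 44.8 FPKM, and Serpinf2, the plasma inhibitor of plasmin, had 2.97 and 7.89. Lyz2 was the fifth. The other 10 were listed at 0 in the Adar1-/- library, among them Elp5, Dnajc7, Tsfm, Snf8 and Nabp2, at 51.1, 37.8, 22.5, 15.8 and 12.9 FPKM in the Adar1-/- Mavs-/- library. The rest were Traf3ip2, Aldoc, Tmc8, Tle6 and Gm3625. Over their gene spans Elp5 had 1.87 and 36.6 FPKM, and Dnajc7, a cochaperone, had 3.24 and 19.5.

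Outside these sets the lowest ratios, and some of the highest, were less stable. Among genes above 0 in both libraries with bounds apart and at least 2-fold the same way with assembled isoforms, 39 were lower and 43 higher. Of the 12 lowest, 8 were interferon-stimulated genes, from which nothing is read, since the lists were chosen with earlier results of these data known. The other 4 were Cand1, a regulator of cullin ligases, at 98.5 and 11.9 FPKM, Axin2, a feedback inhibitor of Wnt signalling, at 44.0 and 5.08, Fam117a at 17.1 and 1.49, and Ppa1, a pyrophosphatase, at 62.1 and 8.47. Over their gene spans those 4 had log2 ratios from -0.39 (Axin2) to 0.01 (Fam117a), all within 2-fold. Of the 12 highest, 5 were processed pseudogenes, led by Gm12013 at 46.4 and 413.7 FPKM, and 2 were U1 small nuclear RNA genes. These pseudogenes and U1 genes were also at least 2-fold higher over the gene span. The 5 protein-coding ones were Hba-a2, Snrpd3, Rnft1, Fam171a2 and Luc7l3, and over the gene span all of them but Snrpd3 lay within 2-fold. Hba-a1 and Hba-a2, near-identical copies of the adult alpha globin gene, went in opposite directions (5006 and 3544 FPKM, and 813.2 and 4011), and their sum of 5819 and 7556 gave a log2 ratio of 0.38.

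The other 34 lists held 318 counted genes of no interferon list, of which 29 (9.12%) were at least 2-fold lower and 26 (8.18%) at least 2-fold higher, both below the share over all counted genes. With assembled isoforms 10 of the lower and 12 of the higher genes kept their call, and over the gene span as well 3 and 8 did. Their median log2 ratio was -0.11, beside -0.10 over all counted genes. No list other than those of the interferon pathway and the chemokines had a median of 1 or more in size, among lists with at least 3 counted genes.

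**Figure D5:**
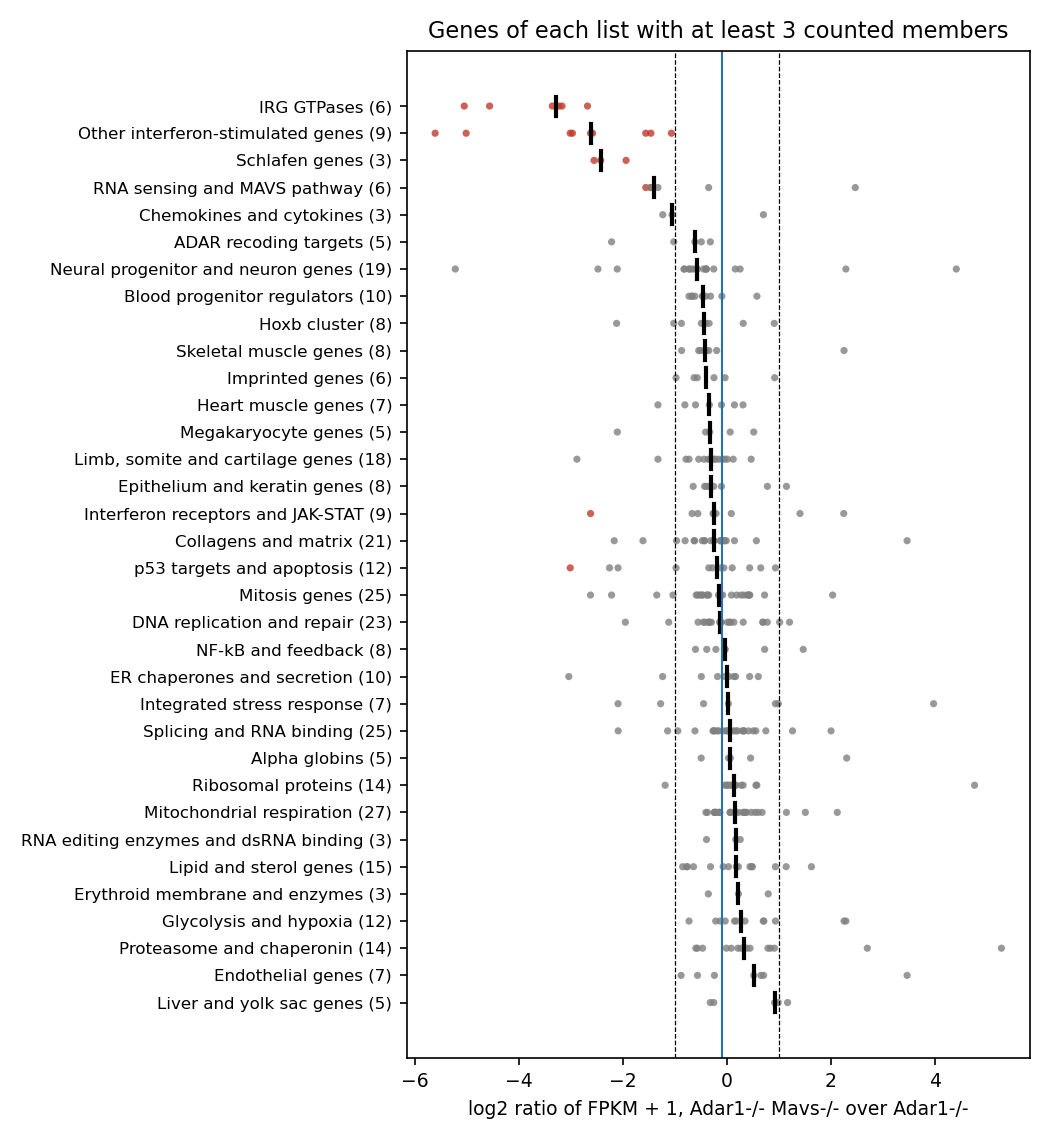
Log2 ratio of every counted gene (points, red where interferon-stimulated) in each list with at least 3 counted genes, with the list median as a black bar, the median of all counted genes as a blue line at -0.10 and dashed lines at a 2-fold difference. The interferon-stimulated lists lie at the top with medians from -3.30 to -2.43, RNA sensing and chemokines follow at -1.40 and -1.06, and the other lists have medians from -0.62 to 0.92 with single genes far out on both sides.

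Tissue lists had medians a little below 0, with wide single values. Neural progenitor and neuron genes had a median of -0.57 over 19 counted genes, 3 of them at least 2-fold lower and 2 higher. Fabp7, a radial glia marker, was at -0.82, and Marcks, the most abundant, had 39.5 and 26.3 FPKM. The 3 lower genes, Chd3, Tlx3 and Mapt, were listed at 0 in the Adar1-/- Mavs-/- library, and with assembled isoforms they were at 0.52, 0.63 and -0.21. Limb, somite and cartilage genes had a median of -0.31 (18 counted, 2 lower), heart muscle genes -0.34 (7 counted, 1 lower) and skeletal muscle genes -0.42 (8 counted, 1 higher). Tbx2, a transcription factor of heart and limb, had 14.3 and 5.07 FPKM but was at -0.37 with assembled isoforms. Myh3, the embryonic myosin heavy chain, was at -0.87, and the Hoxb cluster, which patterns the body axis, had a median of -0.45 (8 counted).

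Genes of the vessels, blood and liver did not share a direction. Endothelial genes had a median of 0.51 (7 counted), which was 0.05 with assembled isoforms. Of the 7, 4 had ratios above 0 and 3 had ratios below. Pecam1 had 15.54 and 22.6 FPKM, and Ramp2, a subunit of the adrenomedullin receptor, had 30.4 and 50.1. The 3 below were Vezf1, Flt4 and Rhob, which had 35.2 and 18.6 FPKM, a log2 ratio of -0.88. Lama4, a laminin chain, was listed at 0 with Adar1 lost alone and was at -1.44 with assembled isoforms. Blood progenitor regulators had a median of -0.47 over 10 counted genes, 0 of them 2-fold, with Cd24a at 157.0 and 113.2 FPKM. The 3 counted erythroid genes had a median of 0.22, with Slc4a1, the anion exchanger band 3, at 17.4 and 30.8 FPKM. Liver and yolk sac genes had a median of 0.92 over 5 counted genes, which was 0.19 with assembled isoforms.

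Stress and death lists were spread about 0. Genes of p53 and apoptosis had a median of -0.20 over 12 counted, with Mdm2, the ligase of p53, at 3.03 and 2.71 FPKM and Birc5, survivin, at 33.2 and 45.3. Of the 3 lower genes one was Xaf1, and the others, Tob1 and Gadd45b, were at 2.32 and -0.70 with assembled isoforms. Integrated stress response genes had a median of 0.02 (7 counted), with Sqstm1, the autophagy receptor p62, at 89.9 and 178.9 FPKM. Mars, the methionine tRNA synthetase, had 80.3 and 32.5 FPKM but was at 0.08 over its gene span. ER chaperone and secretion genes had a median close to 0 (10 counted), with P4hb, protein disulfide isomerase, at 268.7 and 363.4 FPKM. Xbp1, a transcription factor of the unfolded protein response, had 7.25 FPKM and was listed at 0, but was at -0.47 over its gene span.

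The editing enzymes on these chromosomes lay within 2-fold. Adarb1, which encodes ADAR2, had 1.58 and 0.962 FPKM, and the tRNA deaminase genes Adat2 and Adat3 had 1.98 and 2.35 and 3.56 and 4.43. Of 5 counted genes with known recoding sites, 2 were at least 2-fold lower and 0 kept that call with assembled isoforms. Cyfip2, a target of ADAR2, had 4.51 and 2.59 FPKM, a log2 ratio of -0.62 that was -1.03 with assembled isoforms and 0.03 over the gene span.

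Genes of protein synthesis, energy supply and protein turnover had medians a little above 0. Ribosomal protein genes had a median of 0.14 over 14 counted, 11 of them above 0, with Rack1 at 2159 and 2284 FPKM. Mitochondrial genes had a median of 0.15 over 27 counted, 3 of them at least 2-fold higher (Uqcrq, Mrpl12 and Cox10), with Atp5b, the beta subunit of ATP synthase, at 1184 and 1889 FPKM. Cox10 was at -1.31 with assembled isoforms. Proteasome and chaperonin genes had a median of 0.32 (14 counted), with Cct4 at 451.9 and 325.8 FPKM and Psmd12 at 16.6 and 32.1. Mitosis genes had a median of -0.16 (25 counted) and DNA replication and repair genes -0.13 (23 counted). Aurkb, the mitotic kinase Aurora B, had 72.4 and 27.7 FPKM but was at -0.17 over its gene span, and Cdk4, the kinase of the G1 phase, had 1044 and 968.4.

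Tissue matrix, growth and metabolism lists gave wide values that depended on the isoforms. Collagens and matrix genes had a median of -0.26 over 21 counted, with Col18a1, a basement membrane collagen, at 103.4 and 22.2 FPKM but at -0.16 over its gene span. Imprinted genes had a median of -0.41 over 6 counted, 0 of them 2-fold. Plagl1, an imprinted zinc finger regulator of growth, had 24.2 and 11.75 FPKM, a log2 ratio of -0.98 that was -1.20 with assembled isoforms and -1.41 over the gene span. Grb10, a growth inhibitor, had 155.7 and 104.3 FPKM. Splicing and RNA binding genes had a median of 0.05 over 25 counted, with Eif5a, a translation factor, at 302.2 and 429.1 FPKM. Glycolysis and hypoxia genes had a median of 0.26 over 12 counted, among them Aldoc, an aldolase, with 3.88 FPKM in the Adar1-/- Mavs-/- library and listed at 0 in the other. Lipid and sterol genes had a median of 0.18 over 15 counted, with Pcyt2, an enzyme of phosphatidylethanolamine synthesis, at 6.62 and 15.8 FPKM and Gpx4, a peroxidase of lipids, at 380.2 and 387.5.

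The ratio varied with the length and the level of a gene. Protein-coding genes whose longest reference isoform fell in the shortest of 4 equal groups, below 1976 bases, had a median log2 ratio of 0.02, and those in the longest group, from 4450 bases, had -0.34, with -0.11 and -0.17 between. Of the 18 interferon-stimulated genes 4 were in the longest group and 3 in the shortest, and their median length was 2816.5 bases beside 3076 for counted protein-coding genes. Genes whose higher value was from 5 to 20 FPKM had a median of -0.18, and those of at least 100 FPKM had 0.20. The part of length and level in the values of the interferon-stimulated genes and in the other list medians was not tested.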

How the data were processed

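The authors deposited 1 table of isoforms per library with an FPKM value, its confidence bounds, a status and a coverage signal for each isoform, per the file headers. The mm9 build, TopHat 1.4.0, Cufflinks 2.2.1 and edgeR 3.4.2 are listed, per the submitters' processing notes, which assign them no steps. Strand, duplicates and assembly options were not given in the sources used here. Of these, the deposited coverage signal served only as a measure of depth.

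Ensembl transcript identifiers were given symbols through GENCODE M21 (90.2% of 12705 reference isoforms on the chromosomes compared matched), with no coordinates taken from it. Reference isoforms with a symbol made up 47.0% and 25.0% of all FPKM multiplied by length in the Adar1-/- and the Adar1-/- Mavs-/- library. FPKM were summed per symbol, bounds' distances combined as the root of summed squares, values scaled by 1.29, and log2 ratios taken with a pseudocount of 1 over genes of at least 1 FPKM. With 1 library a group no test was run. The steps that give the scaling factor and the 2-fold calls were tested on simulated data with known changes. Python 3.11.15, numpy 2.4.6 and pandas 2.3.3 were used.

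The text names all counted interferon-stimulated genes. Of every other list the rule gives the counted gene with the highest FPKM and up to 3 with the largest ratios in size, of which a part is named. Of all counted genes it gives the 12 largest ratios in each direction among genes above 0 in both libraries, with bounds apart and 2-fold the same way with assembled isoforms. Other genes named (neighbours, marker genes, genes lower or higher by every summing, and further list members) were chosen after their values were seen. Members and lists were chosen with earlier results of these data known. Alternatives were other scalings, pseudocounts, filters and isoform sets. Every isoform over the gene span (FPKM times length, over the longest reference isoform) was added after seeing the data.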

Additional observations from a re-analysis of the deposited data

Results flagged for a closer look

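The most abundant RNA of the chromosomes compared belongs to no gene symbol and entered no gene value. It is an assembled isoform without a symbol on chromosome 10 of mm9, from 11211873 to 11212033 (161 bases) in the Adar1-/- Mavs-/- library and from 11211876 to 11212032 (157 bases) in the Adar1-/- library. Its deposited value was 1050430 FPKM in the Adar1-/- Mavs-/- library and 119494 in the Adar1-/- library, before any scaling. When FPKM are multiplied by isoform length, it made up 59.0% and 11.2% of the total. Without it, reference isoforms with a symbol made up 61.0% and 52.9%. It was picked out because it lies outside the gene values that were compared, and there is no control library to set it against.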

How the results depend on the processing

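The median of the interferon-stimulated genes was below 0 under every scaling, pseudocount, filter and isoform set tried. It ran from -4.92 (pseudocount 0.1) to -1.42 (pseudocount 5). Not every gene was at least 2-fold lower: 13 of 18 were with a pseudocount of 5, 21 of 24 with TPM and 18 of 30 without the minimum. With assembled isoforms 18 of 19 were, and over the gene span 19 of 20. Over all counted genes, 102 were lower with a pseudocount of 5 and 1170 with TPM. With assembled isoforms 221 were, over the gene span 175, and without the minimum 224 of 4201 symbols (5.33%). TPM shifts every ratio by -0.97 before the pseudocount and put the median counted gene at -1.04, so nothing is read from the 21 of 24. Other counts moved by more than 1.5 times. With FPKM as deposited 47 genes of other lists were at least 2-fold lower. With TPM 1170 counted genes, 215 genes of other lists and 18 neighbours were lower, and with the upper quartile factor 2 neighbours. With a pseudocount of 5, 90 genes were higher and 102 lower, of other lists 13 and 10, and 2 neighbours were lower. With a minimum of 5 FPKM, 118 genes were higher and 148 lower, with 15 lower on other lists. Among protein-coding genes only 114 were higher. Over the gene span 14 genes of other lists and 0 neighbours were lower.

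Single genes turned with the isoforms summed. With assembled isoforms the log2 ratio turned to -1.23 in G3bp1, -1.45 in Socs7, 2.32 in Tob1, 0.33 in Sec61g, 0.12 in Spdl1, 0.029 in Itga2b, -1.44 in Lama4, 0.52 in Chd3, -0.28 in Rnd2, 0.63 in Tlx3, -1.22 in Eno3, 0.82 in Hoxb9, 0.29 in Tubg1, -1.31 in Cox10, -0.40 in Hsf2 and 0.91 in Supt4a. With isoforms of status OK only it turned to 0.35 in Mars, 2.83 in Rps6kb1 and 1.30 in Fam117a. Over the gene span it turned to -0.063 in G3bp1, -0.54 in Socs7, -0.60 in Stat5b, 0.55 in Tob1, -0.13 in Txnrd1, 0.078 in Mars, 0.0090 in Itga2b, -0.29 in Lama4, 0.00053 in Hoxb9, -0.15 in Skp1a, -0.51 in Rps12, -0.58 in Cox10, -0.12 in Hsf2, 0.46 in Supt4a, -0.12 in Acaca, -0.53 in Luc7l3, 0.0084 in Fam117a, 0.79 in Ncoa7 and 0.082 in Zfp692. The cause was not tested. No paired analysis was possible because each group has 1 library, and no library could be left out for the same reason. Depth is unknown, and values near 0 have no counting limit.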

Other observations

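Among genes with a symbol, U1 small nuclear RNA genes had the highest values in both libraries. The U1 genes Rnu1a1 and Gm22068 reached 12386 and 12432 FPKM with Adar1 lost alone, against 54017 and 52129 with Mavs lost too. The U3 genes Rnu3b3 and Rnu3a, which guide the cutting of ribosomal RNA precursors, had 3815 and 10780 FPKM and 830.0 and 2156. Of 24 counted small nuclear RNA genes 11 were higher and 8 lower by 2-fold or more, and of 15 small nucleolar RNA genes 6 and 7, beside 11.1% higher and 13.8% lower over all counted genes. The small Cajal body RNA gene Gm22442 stood at 5548 FPKM with Adar1 lost alone, and at 0 with Mavs lost too. The U2 gene Rnu2-10 lay within 2-fold, at 2397.5 and 3868 FPKM. Many of the lower ones were listed at 0 in the Adar1-/- Mavs-/- library, such as Snord118, the U8 gene, which had 42.3 FPKM in the Adar1-/- library. Some of these genes are near-identical copies of each other, so the split of reads between them is uncertain.

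Processed pseudogenes, copies of messenger RNAs in the genome, had a median log2 ratio of 0.20 over 174 counted, with 32 higher and 11 lower by 2-fold or more, beside 11.1% and 13.8% over all counted genes. Of these, 23 and 5 kept their call with assembled isoforms and over the gene span. Among them were the ribosomal protein pseudogenes Rps15a-ps6 (42.6 and 111.9 FPKM) and Rpsa-ps4 (29.3 and 81.0). Their reads cannot be told apart with certainty from those of the parent genes, and ribosomal protein genes on the chromosomes compared had a median of 0.14.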
